A study of Rattus norvegicus with 10 samples.

Results

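Chemokines are small secreted proteins that steer leukocytes, and chemokine receptors are the proteins on the leukocyte surface that bind them. The members described here were all transcripts of the expression table whose gene symbol begins with Ccl, Cxcl, Cx3cl, Xcl, Ccr, Cxcr, Cx3cr or Xcr followed by a digit. They comprised 55 transcripts of 53 symbols (34 ligands and 19 receptors) among 17221 transcripts. Of these, 42 transcripts of 41 symbols reached at least 1 CPM (counts per 1000000 reads, scaled by the authors) in at least 1 library and are described, 26 of them for ligands and 16 for receptors. Of the other 13, 5 had no read in any library (Ccl25, Ccl26, Ccl28, Cxcr1 and 1 of 3 Cxcl12 transcripts), and 8 had reads but stayed under 1 CPM throughout (Ccl1, Ccl4, Ccl20, Ccr1l1, Ccr3, Cxcl3, Cxcl5 and Xcl1).

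The 10 libraries were made from muscle under the skin (per the study's methods, tissue around the points of needling, taken when the animals were killed) of Wistar rats, all female, that had collagen-induced arthritis (CIA). To model rheumatoid arthritis (RA), CIA rats are immunised with bovine type II collagen in Freund's adjuvant, and every group described here carried it. The RA_0 libraries date from before any therapy. AP_1h and AP_34d received acupuncture (AP), a short needle put in and twirled beside the lower spine and below the knee, and were sampled at 1 h and at 34 days. PLA_1h and PLA_34d received placebo (PLA), a saline injection into the peritoneum and thus not at the sampled tissue, and were sampled at the same times. All animals were shaved at the points of needling, and ether was used when AP and PLA animals were bled. Each group held 2 libraries, which the labels number as replicates. The labels do not say whether these came from separate animals, nor from which needling point, so the p-values below measure only the spread between these libraries, which may be technical. Healthy animals were not analysed here.

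Inflamed tissue makes CC and CXC chemokines within hours, under the control of transcription factors such as NF-κB and of interferons. Ccl2 and Ccl7 act on Ccr2 to draw monocytes, Ccl3 and Ccl5 act on Ccr1 and other receptors on monocytes and T cells, and Cxcl1 and its relatives act on Cxcr2 to draw neutrophils. A further, homeostatic set (Ccl19 and Ccl21 with Ccr7, Cxcl13 with Cxcr5) places lymphocytes in lymph nodes and in the lymphoid aggregates of inflamed joints.

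The libraries held 5371687 to 8899521 counted reads, so that 1 CPM stood for 4.19 to 10.1 reads and 0 reads would allow a level of up to 0.297 to 0.716 CPM (3 reads, counting error only). Most members were therefore read from few counts, and levels are not compared between genes because transcript lengths were not used. Skeletal muscle markers were abundant throughout, with 6 of 7 symbols found (Acta1, Ckm, Tnnt3 and others) and summed levels of 110901 to 307223 CPM. PLA_34d replicate 1 stood apart. Its 8 transcripts for B cell and lymph node markers (7 of 9 symbols found) summed to 501 CPM against 3.29 to 15.4 in the other 9 libraries. T cell markers summed to 250.1 CPM against 7.0 to 32.6, leukocyte markers to 459.6 against 23.9 to 130, and muscle markers had their lowest sum. Ptprc, the pan-leukocyte marker, was listed at 0 for all 5 of its transcripts in every library, so that leukocytes were followed by the other 5 symbols.

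The highest values of most members lay in 3 libraries, and for 2 of these (PLA_34d replicate 1 and AP_1h replicate 1) the share of members was above that of all tested transcripts. Of the 42 described, 19 (45.2%) had their highest value in PLA_34d replicate 1, 14 (33.3%) in AP_1h replicate 1 and 6 (14.3%) in AP_34d replicate 2. The shares of the 10259 tested transcripts were 19.0%, 8.87% and 14.7%. These transcripts had at least 1 CPM in both libraries of some group, a stricter filter. Of the 25 members that passed it too, 8 (32%), 11 (44%) and 4 (16%) were highest in the same 3 libraries. Since 1 CPM in 1 library was enough to be described, some of the 19 (Ccl19, Ccr7 and Ccr6 among them) entered through PLA_34d replicate 1 alone. RA_0 replicate 1, AP_1h replicate 2 and both PLA_1h libraries held the highest value of no member. Within AP_1h, 32 of 42 members were higher in replicate 1 and 9 in replicate 2, and within PLA_34d 34 were higher in replicate 1 and 8 in replicate 2. Within PLA_1h 28 were higher in replicate 1 and 12 in replicate 2. Among all tested transcripts, which passed a stricter filter than the 42, replicate 1 was the higher for 50.6% in AP_1h, 52.9% in PLA_34d and 52.5% in PLA_1h. Replicates of these 3 groups thus differed in one direction for most of the 42 described, some of which were described only because 1 library was high.

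**Figure D1:**
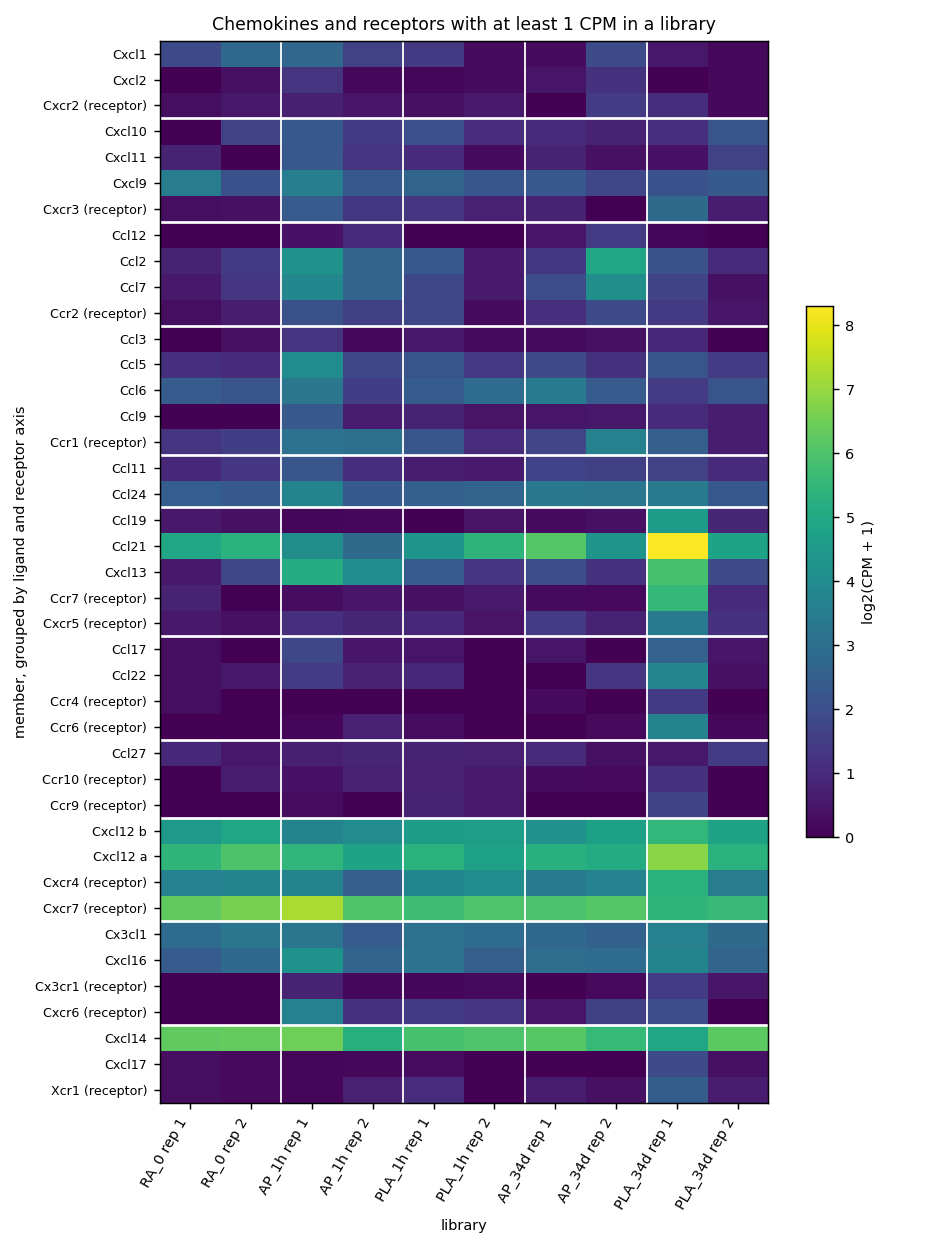
Levels of 41 of the 42 described members as log2(CPM + 1) (colour) in each of the 10 libraries (columns, grouped by white lines), with ligands and receptors grouped by the axis they share (rows). Cxcl12 a and b are the transcripts NM_022177 and NM_001033883. The columns AP_1h replicate 1, AP_34d replicate 2 and PLA_34d replicate 1 hold the highest values of 14, 6 and 19 of all 42.

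AP_1h was set against RA_0 to ask what differed in needled tissue 1 h after therapy began. With limma on log2(CPM + 1), 25 of the 55 members (45.5%, against 59.6% of all transcripts) had at least 1 CPM in each of the 2 libraries of some group and were tested. None of them passed an adjusted p of 0.05, where 0.0292% of all tested transcripts (3) did, and the smallest adjusted p of a member was 0.341 for Cxcl13. At an unadjusted p under 0.05 stood 11 of the 25, against 8.89% of all tested transcripts. The study's own criterion (unadjusted p under 0.05, at least 2-fold, mean of at least 1 CPM) was met by 10 members with higher values in AP_1h, against 2.53% of transcripts in that direction, and by 0 with lower values, against 3.59%. Among the 10 were the ligands Ccl2, Ccl5, Ccl7, Cxcl11 and Cxcl13 and the receptors Ccr1, Ccr2, Cxcr3 and Cxcr6. The libraries did not overlap for 11 members higher in AP_1h (20.6% of all transcripts) and for 2 lower (21%). The median log2 difference of the 25 was 0.64, beside 0.0020 over all tested transcripts. DESeq2 on recovered reads called 2 of the members (Cxcl13 and Cxcr6), and limma-voom and edgeR's quasi-likelihood test called 0.

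These counts rested on single libraries. Without AP_1h replicate 1, 0 members met the study's criterion, without RA_0 replicate 1 2 did, and without RA_0 replicate 2 4 did, whereas 10 did without AP_1h replicate 2. The sums of macrophage and leukocyte markers differed between these libraries too. The 7 macrophage markers summed to 42.0 and 52.7 CPM in RA_0, 164 and 61.3 in AP_1h, 73.7 and 48.6 in PLA_1h, 108 and 88.9 in AP_34d, and 175 and 39.9 in PLA_34d. The leukocyte list summed to 24.1 and 26.3 CPM in RA_0, 130.3 and 44.2 in AP_1h, 44.9 and 24.7 in PLA_1h, 50.4 and 45.0 in AP_34d, and 459.6 and 23.9 in PLA_34d. The macrophage sum was thus highest in PLA_34d replicate 1 and AP_1h replicate 1, and in both AP_1h libraries it exceeded both RA_0 libraries. In AP_1h replicate 2 only Mrc1, Cd163 and Lyz2 were above both RA_0 libraries. Cd68, Emr1 and Cd14 lay within the RA_0 range there, and Csf1r lay below it (14.1 CPM, against 18.1 and 19.3). Of the 7 macrophage markers, Mrc1, Cd163 and Lyz2 met the study's criterion with higher values in AP_1h, as did Tyrobp of the leukocytes, and none passed the adjusted threshold. The part of these cells in the chemokine values was not tested, and in bulk tissue fewer cells of a type and less RNA per cell cannot be told apart.

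**Figure D2:**
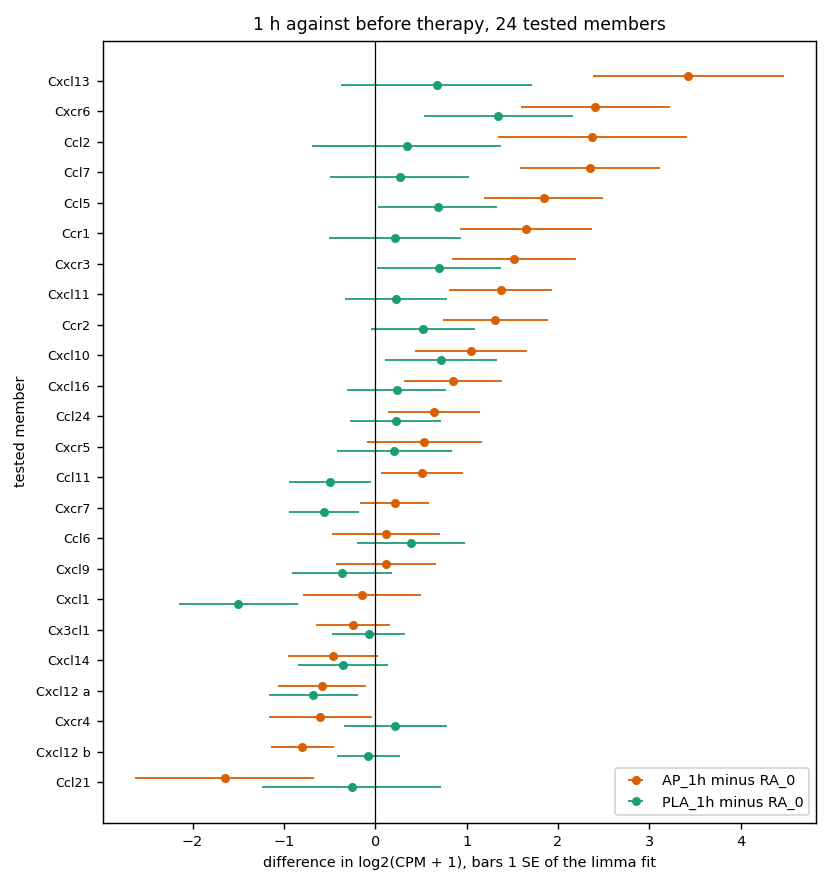
Difference in log2(CPM + 1) between AP_1h and RA_0 (orange) and between PLA_1h and RA_0 (green) for 24 of the 25 tested members (rows), with bars of 1 SE from the limma fit over all 10 libraries. Both sets of differences share the RA_0 libraries. Cxcl13 lies at 3.43 for AP_1h and 0.67 for PLA_1h, and Cxcl1 at -0.15 and -1.50. No member passed the adjusted threshold.

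The monocyte-drawing ligands Ccl2 and Ccl7 and their receptor Ccr2 held their highest values in acupuncture libraries. In the sentences that follow, values are given in CPM per library, with replicate 1 before replicate 2. Ccl7 (NM_001007612, rn4 chromosome 10, 70267281 to 70269131) stood at 0.477 and 1.49 CPM in RA_0, 13.7 and 5.46 in AP_1h, 2.48 and 0.526 in PLA_1h, 2.93 and 16.3 in AP_34d, and 2.24 and 0.284 in PLA_34d. Ccl2 (NM_031530, chromosome 10, 70256263 to 70258061), which lies beside it, stood at 0.716 and 1.63 CPM in RA_0, 18.3 and 5.32 in AP_1h, 3.77 and 0.526 in PLA_1h, 1.56 and 29.4 in AP_34d, and 3.14 and 0.995 in PLA_34d. Both ligands were higher in both AP_1h libraries than in any RA_0 or placebo library, and in AP_34d replicate 2 but not in replicate 1 they were higher still. Ccl12, a rodent Ccr2 ligand of the same chromosomal run, stood at 0 and 0 CPM in RA_0, 0.324 and 0.980 in AP_1h, 0 and 0 in PLA_1h, 0.391 and 1.79 in AP_34d, and 0.112 and 0 in PLA_34d. It rested on 10 reads in AP_1h and 14 in AP_34d, against 0 in RA_0 and PLA_1h and 1 in PLA_34d. Over the group, 3 reads in RA_0 would be 0.275 CPM. Pooled over both libraries, Ccl12 stood at 2.22 times that level in AP_1h and 4.32 times in AP_34d. These ratios leave out the counting error of the AP_1h and AP_34d reads. Most of those reads lay in replicate 2, with 7 of 10 in AP_1h and 12 of 14 in AP_34d. Ccr2 stood at 0.239 and 0.594 CPM in RA_0, 3.14 and 1.96 in AP_1h, 2.48 and 0.175 in PLA_1h, 1.17 and 2.69 in AP_34d, and 1.68 and 0.426 in PLA_34d, and both AP_1h libraries lay above both RA_0 libraries, while PLA_1h replicate 1 lay between them.

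Ccl7 is the member that met the study's criterion in the most comparisons, with 4 of 6. Its log2 difference was 2.35 ± 0.76 (SE, limma adjusted p 0.384) between AP_1h and RA_0 and 2.105 ± 0.76 (SE, limma adjusted p 0.967) between AP_34d and RA_0, a pair that shares its controls. Against placebo it was 2.08 ± 0.76 (SE, limma adjusted p 0.984) at 1 h and 2.01 ± 0.76 (SE, limma adjusted p 0.846) at 34 days. All 4 acupuncture libraries were above all 4 placebo libraries, with the lowest acupuncture value at 2.93 and the highest placebo value at 2.48 CPM. Averaged over both times, acupuncture exceeded placebo by 2.05 ± 0.54 (SE, limma adjusted p 0.543) on the log2 scale, with 0 of the 25 members past the adjusted threshold there (0% of all tested transcripts). DESeq2 called Ccl7 in that average. Ccl2 differed from RA_0 by 2.38 ± 1.03 (SE, limma adjusted p 0.548) in AP_1h and by 2.05 ± 1.03 (SE, limma adjusted p 0.967) in AP_34d, and Ccr2 by 1.32 ± 0.57 (SE, limma adjusted p 0.546) in AP_1h. The 34-day means rested on replicate 2, in which the macrophage markers summed to 88.9 CPM and the leukocyte markers to 45.0, both below replicate 1 with 108 and 50.4. The macrophage and leukocyte sums of both AP_34d libraries were above those of both RA_0 libraries, and Cd163 (2.04) and Mrc1 (1.38, log2 differences) met the study's criterion in AP_34d against RA_0. The part of these cells in the 34-day values was not tested. Without AP_34d replicate 2, Ccl7 did not meet the study's criterion at 34 days against RA_0 or placebo. Nor did it against RA_0 without RA_0 replicate 1, or against placebo without PLA_34d replicate 2.

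To show the letters upstream of these neighbours, the 120 bases before the start site of Ccl7 and Ccl12 are printed in RefSeq's GRCr8 sequence (Ccl7 at chr10:67513975-67514094, Ccl12 at chr10:67567756-67567875, both on the plus strand). Capitals mark matches to the AP-1 letters TGANTCA, and to the 10-letter NF-κB consensus (searched by that name) on either strand, and to TATAAA on the strand of the gene.
Ccl7: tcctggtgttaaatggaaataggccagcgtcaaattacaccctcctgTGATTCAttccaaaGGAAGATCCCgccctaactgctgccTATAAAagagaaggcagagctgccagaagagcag
Ccl12: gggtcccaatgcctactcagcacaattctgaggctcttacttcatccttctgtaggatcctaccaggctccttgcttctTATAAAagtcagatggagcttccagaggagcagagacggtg
Ccl7 held an AP-1 match 73 bases, an NF-κB match 59 bases and TATAAA 34 bases before the start, and Ccl12 held TATAAA at 41. No entry for Ccl2 was found in the promoter table.

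The receptor Ccr1, carried by monocytes, macrophages and T cells, followed the same libraries. Ccr1 (NM_020542, chromosome 8, 128693659 to 128699213) stood at 1.43 and 1.93 CPM in RA_0, 7.46 and 7.28 in AP_1h, 3.67 and 1.05 in PLA_1h, 2.34 and 11.5 in AP_34d, and 4.71 and 0.569 in PLA_34d. Both AP_1h libraries were above every RA_0 and placebo library, and AP_34d replicate 2 was the highest of the 10. The difference from RA_0 at 1 h was 1.65 ± 0.72 (SE, limma adjusted p 0.551). Its ligand Ccl5 (RANTES), made by T cells and many others, stood at 1.19 and 1.04 CPM in RA_0, 15.4 and 2.52 in AP_1h, 3.47 and 1.58 in PLA_1h, 2.73 and 1.34 in AP_34d, and 3.48 and 1.71 in PLA_34d, and differed by 1.84 ± 0.65 (SE, limma adjusted p 0.434) at 1 h. Its level in AP_1h replicate 1 was far above the other 9 libraries, of which the highest was PLA_34d replicate 1.

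Of the other ligands of Ccr1, Ccl3 and Ccl9 were low. Ccl3 stood at 0 and 0.297 CPM in RA_0, 1.41 and 0.140 in AP_1h, 0.496 and 0.175 in PLA_1h, 0.195 and 0.299 in AP_34d, and 0.897 and 0 in PLA_34d, from 2 reads in RA_0 and 14 in AP_1h, a ratio of 4.66 (exact 95% counting interval 1.07 to 42.3). Ccl9, a Ccr1 ligand of rodents, stood at 0 and 0 CPM in RA_0, 4.0 and 0.560 in AP_1h, 0.793 and 0.351 in PLA_1h, 0.391 and 0.448 in AP_34d, and 1.01 and 0.569 in PLA_34d. It had no read in RA_0, and in AP_1h 37 reads in replicate 1 and 4 in replicate 2. Pooled over both libraries, AP_1h stood at 9.11 times the level of 3 reads in RA_0, a value set mostly by replicate 1. Ccl6, a related rodent ligand, stood at 4.29 and 3.42 CPM in RA_0, 8.76 and 1.82 in AP_1h, 4.36 and 6.49 in PLA_1h, 9.96 and 4.18 in AP_34d, and 1.79 and 3.41 in PLA_34d, with overlapping values in AP_1h and RA_0. Its libraries did not overlap in PLA_1h and RA_0 (higher in PLA_1h), in PLA_34d and RA_0 (lower in PLA_34d) or in AP_34d and PLA_34d, where AP_34d was higher by 1.10 ± 0.59 (SE, limma adjusted p 0.871). Neither Ccl3 nor Ccl9 passed the filter for testing, and Ccl6 met the study's criterion in no comparison.

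**Figure D3:**
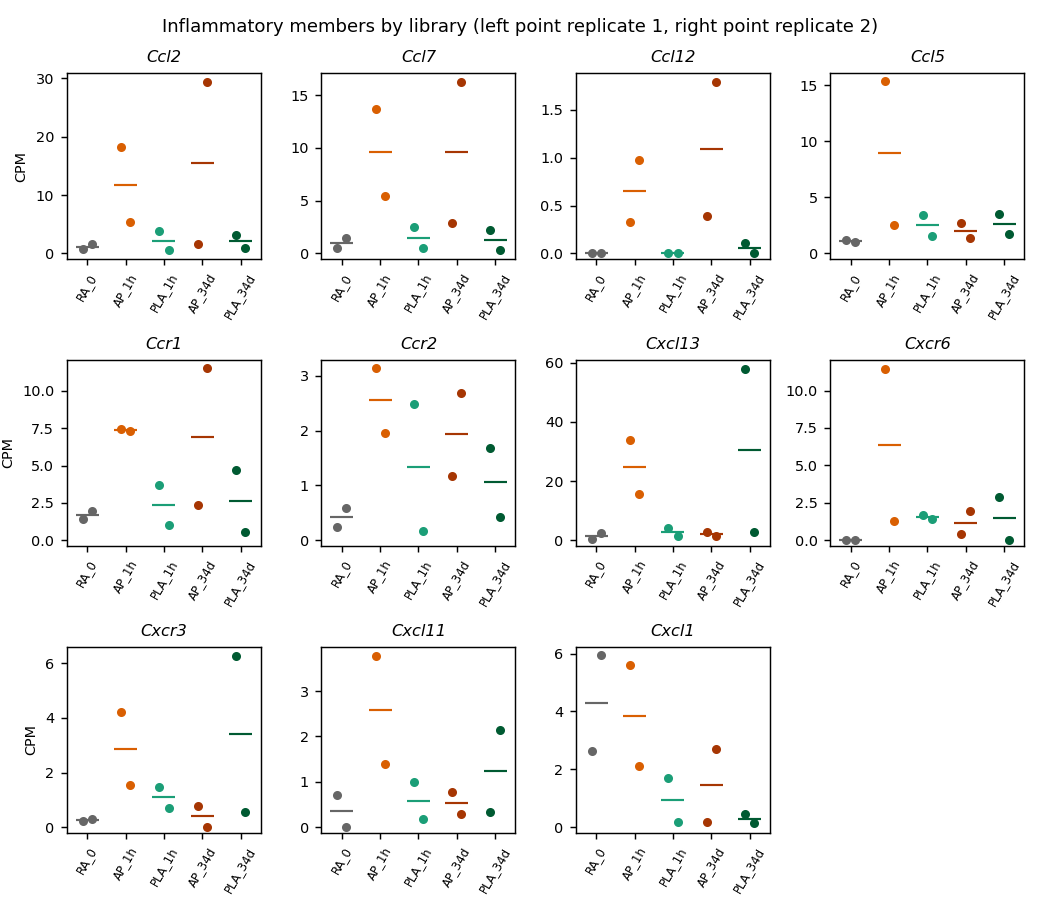
Levels in CPM (vertical axes, one scale per panel) of 11 members in the 5 groups, with 1 point per library and a bar at the mean of 2. Ccl2, Ccl7 and Ccr1 are high in both AP_1h libraries and in AP_34d replicate 2, Cxcl13 in both AP_1h libraries and in PLA_34d replicate 1, and Cxcl1 has its lowest mean in PLA_34d.

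Cxcl9, Cxcl10 and Cxcl11 are ligands that interferons induce, and Cxcr3 is their receptor on activated T cells. Cxcl11 (NM_182952, chromosome 14, 17250648 to 17253423) stood at 0.716 and 0 CPM in RA_0, 3.78 and 1.40 in AP_1h, 0.991 and 0.175 in PLA_1h, 0.781 and 0.299 in AP_34d, and 0.337 and 2.13 in PLA_34d. It had 45 reads in AP_1h and 3 in RA_0, a ratio of 9.99 (exact 95% counting interval 3.21 to 50.3), and a fitted log2 difference of 1.37 ± 0.56 (SE, limma adjusted p 0.528). Cxcr3 stood at 0.239 and 0.297 CPM in RA_0, 4.22 and 1.54 in AP_1h, 1.49 and 0.702 in PLA_1h, 0.781 and 0 in AP_34d, and 6.28 and 0.569 in PLA_34d, with 50 reads in AP_1h and 3 in RA_0 (ratio 11.1, interval 3.59 to 55.7), and differed by 1.52 ± 0.68 (SE, limma adjusted p 0.558). Both AP_1h libraries were above RA_0 and above PLA_1h for Cxcl11 and for Cxcr3, and PLA_34d replicate 1 held the highest Cxcr3 value. Cxcl10 stood at 0 and 2.08 CPM in RA_0, 3.89 and 1.68 in AP_1h, 3.07 and 1.05 in PLA_1h, 0.977 and 0.747 in AP_34d, and 1.23 and 3.41 in PLA_34d, so that RA_0 replicate 2 lay above AP_1h replicate 2. Cxcl9 stood at 10.5 and 3.27 CPM in RA_0, 10.7 and 3.92 in AP_1h, 5.35 and 3.69 in PLA_1h, 3.91 and 2.39 in AP_34d, and 3.25 and 4.12 in PLA_34d, and RA_0 replicate 1 was nearly level with the highest library. The spans of both Cxcl10 and Cxcl11 overlap that of the gene Art3 in the annotation. Whether their exons overlap was not examined, and the use of strand in the counting is not stated. It is therefore not known whether the overlap altered their counts. Of 14 tested transcripts of interferon signalling (Irf1, Irf7, Isg15 and others), 0 met the study's criterion in any of the 6 pairs of groups, with a median log2 difference of 0.14 between AP_1h and RA_0.

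Cxcl10 and Cxcl11, neighbours on rat chromosome 14, carry more of the searched letters than most members and are shown for that reason (Cxcl10 with 250 bases at chr14:15988816-15989065, Cxcl11 with 120 at chr14:15973608-15973727, plus strand, GRCr8, RefSeq). Capitals mark TGANTCA, the NF-κB consensus, TATAAA and the consensus of the interferon-stimulated response element (ISRE, searched by that name on both strands).
Cxcl10: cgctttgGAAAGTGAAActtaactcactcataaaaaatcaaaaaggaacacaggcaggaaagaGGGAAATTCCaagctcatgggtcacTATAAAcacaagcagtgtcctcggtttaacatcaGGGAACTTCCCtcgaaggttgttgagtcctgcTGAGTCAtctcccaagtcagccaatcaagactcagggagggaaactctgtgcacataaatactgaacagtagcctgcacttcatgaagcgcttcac
Cxcl11: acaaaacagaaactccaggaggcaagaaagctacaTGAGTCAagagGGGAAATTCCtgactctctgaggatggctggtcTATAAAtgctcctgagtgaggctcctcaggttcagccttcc
In the 250 bases before the start, NF-κB letters were found in 9 (22%) of the 41 member symbols with a promoter entry, against 6.33% of 33469 promoters, TATAAA in 11 (26.8% against 8.06%), TGANTCA in 7 (17.1% against 6.34%) and the ISRE consensus in 2 (4.88% against 3.41%). The 9 were Cxcl1, Cxcl2, Cxcl5, Cxcl10, Cxcl11, Ccl7, Ccl9, Ccl20 and Ccr3, of which Cxcl5, Ccl20 and Ccr3 stayed under 1 CPM. A match of letters is a description, not a binding site.

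Cxcl16 and Cx3cl1 are ligands made as membrane proteins, with Cxcr6 and Cx3cr1 as their receptors on T cells and monocytes. Cxcr6 (NM_001102587, chromosome 8, 128569564 to 128570618) stood at 0 and 0 CPM in RA_0, 11.5 and 1.26 in AP_1h, 1.69 and 1.40 in PLA_1h, 0.391 and 1.94 in AP_34d, and 2.92 and 0 in PLA_34d. It had no read in RA_0 and 115 in AP_1h, most of them in replicate 1. Pooled over both libraries, AP_1h stood at 25.5 times the level of 3 reads in RA_0. The fitted difference, which depends on the pseudocount, was 2.41 ± 0.82 (SE, limma adjusted p 0.402). Cxcr6 was detected in all 4 libraries at 1 h, acupuncture and placebo alike, and at 34 days in all but PLA_34d replicate 2. Against the same level of RA_0, the pooled libraries stood at 5.77 times in PLA_1h, 5.94 times in PLA_34d and 4.62 times in AP_34d. All of these ratios share the RA_0 libraries. Cxcl16 stood at 4.29 and 6.09 CPM in RA_0, 17.9 and 5.46 in AP_1h, 8.03 and 4.74 in PLA_1h, 6.84 and 6.42 in AP_34d, and 12.3 and 5.54 in PLA_34d and differed by 0.85 ± 0.54 (SE, limma adjusted p 0.696) at 1 h. Cx3cl1 (fractalkine) stood at 6.44 and 8.61 CPM in RA_0, 8.54 and 4.34 in AP_1h, 7.63 and 6.49 in PLA_1h, 6.05 and 4.93 in AP_34d, and 11.2 and 6.25 in PLA_34d, with overlapping values in all pairs except AP_34d, whose libraries were below those of RA_0 and of PLA_34d. Cx3cr1 stood at 0 and 0 CPM in RA_0, 0.757 and 0.140 in AP_1h, 0.0991 and 0.175 in PLA_1h, 0 and 0.149 in AP_34d, and 1.79 and 0.426 in PLA_34d and rested on 0 to 16 reads a library. The span of Cxcr6 overlaps that of Fyco1, and that of Cxcl16 overlaps Zmynd15, in the annotation. Whether this altered their counts is likewise not known.

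Cxcl1, the main neutrophil-drawing ligand of rats, was lower in the placebo libraries, AP_1h replicate 2 and AP_34d replicate 1 than in both libraries before therapy. Cxcl1 (NM_030845, chromosome 14, 18690339 to 18692118) stood at 2.62 and 5.94 CPM in RA_0, 5.62 and 2.099 in AP_1h, 1.69 and 0.175 in PLA_1h, 0.195 and 2.69 in AP_34d, and 0.449 and 0.142 in PLA_34d. Both libraries of PLA_1h and of PLA_34d lay below both RA_0 libraries, whereas the AP_1h libraries overlapped RA_0. Its log2 difference from RA_0 was -1.50 ± 0.65 (SE, limma adjusted p 0.9997) in PLA_1h and -1.96 ± 0.65 (SE, limma adjusted p 0.914) in PLA_34d. In AP_34d it was -1.26 ± 0.65 (SE, limma adjusted p 0.967), with overlapping libraries. In PLA_1h against RA_0, Cxcl1 was the 1 member to meet the study's criterion in the lower direction (0.673% of transcripts), 0 did in the higher direction (0.994%), and 0 were called (0%). Acupuncture exceeded placebo by 1.03 ± 0.46 (SE, limma adjusted p 0.864) over both times, with AP_34d replicate 1 at 0.195 CPM among the placebo values. Without PLA_1h replicate 2 Cxcl1 did not meet the criterion at 1 h, and without RA_0 replicate 2 it did not meet it at either time. Cxcl2, a close paralogue, stood at 0 and 0.297 CPM in RA_0, 1.41 and 0.140 in AP_1h, 0.0991 and 0.175 in PLA_1h, 0.391 and 1.34 in AP_34d, and 0 and 0.142 in PLA_34d, and the receptor Cxcr2 at 0.239 and 0.446 CPM in RA_0, 0.649 and 0.420 in AP_1h, 0.297 and 0.526 in PLA_1h, 0 and 1.79 in AP_34d, and 1.12 and 0.142 in PLA_34d, and both were low in RA_0, where Cxcl1 was high. The Cxcl1, Cxcl2 and Cxcl3 genes are near-identical in part, and a read that fits more than 1 of them may have been placed with either. Neutrophil markers (S100a8, S100a9, Lcn2, Camp, Mpo and Elane) summed to 8.59 and 7.28 CPM in RA_0, 25.2 and 3.92 in AP_1h, 10.6 and 15.8 in PLA_1h, 1.95 and 8.22 in AP_34d, and 1.68 and 2.56 in PLA_34d. They were higher in both PLA_1h libraries than in both RA_0 libraries and lower in both PLA_34d libraries, and their part in the Cxcl1 values was not tested.

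The 120 bases before the start of Cxcl1 (chr14:17479322-17479441, minus strand, GRCr8, RefSeq) are given because Cxcl1 met the criterion in the lower direction in both placebo groups against RA_0. Capitals mark a stretch that matches the NF-κB consensus from either strand.
Cxcl1: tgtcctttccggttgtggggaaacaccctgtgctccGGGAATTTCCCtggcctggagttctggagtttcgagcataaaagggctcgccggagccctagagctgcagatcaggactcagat
The match begins 84 bases before the start, and its first letters GGGAATTTCC also occur upstream of Cxcl5, whose transcript RefSeq calls Cxcl6 today.

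Ccl11 (eotaxin) and Ccl24 draw eosinophils through Ccr3, which itself stayed under 1 CPM. Ccl11 stood at 0.954 and 1.49 CPM in RA_0, 3.68 and 1.12 in AP_1h, 0.595 and 0.526 in PLA_1h, 2.15 and 1.94 in AP_34d, and 2.02 and 0.995 in PLA_34d, and both AP_1h libraries lay above both PLA_1h libraries, a difference of 1.01 ± 0.45 (SE, limma adjusted p 0.9999). AP_1h replicate 2 was within the range of RA_0. Ccl24 stood at 4.53 and 4.01 CPM in RA_0, 12.3 and 4.06 in AP_1h, 4.86 and 5.44 in PLA_1h, 8.98 and 8.51 in AP_34d, and 9.65 and 3.84 in PLA_34d, highest in AP_1h replicate 1 and with both AP_34d libraries above RA_0.

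The lymphoid set was high in a single placebo library, and Cxcl13 also in both AP_1h libraries. Cxcl13 (NM_001017496, chromosome 14, 15126332 to 15131368), which draws B cells through Cxcr5, stood at 0.477 and 2.38 CPM in RA_0, 33.8 and 15.5 in AP_1h, 4.26 and 1.40 in PLA_1h, 2.93 and 1.34 in AP_34d, and 58.0 and 2.70 in PLA_34d. It was the member with the largest fitted difference at 1 h, 3.43 ± 1.05 (SE, limma adjusted p 0.341), and differed from PLA_1h by 2.75 ± 1.05 (SE, limma adjusted p 0.9999). Both AP_1h libraries were at 15.5 CPM or more, and no RA_0 or PLA_1h library exceeded 4.26 CPM. B cell and lymph node markers summed to 11.03 and 14.3 CPM in AP_1h, against 10.7 and 4.46 in RA_0, so that AP_1h replicate 1, where Cxcl13 was the higher, was level with RA_0 replicate 1. In AP_34d Cxcl13 was within the RA_0 range or just above it. At 34 days it differed by 2.73 ± 1.05 (SE, limma adjusted p 0.914) between PLA_34d and RA_0, a value set by PLA_34d replicate 1. The interaction of therapy and time was -5.04 ± 1.48 (SE, limma adjusted p 0.9998), with 0 of 25 members called (0% of transcripts) and 2 (Cxcl13 and Cxcr3) meeting the study's criterion in the lower direction (2.06%) and 0 in the higher (1.78%). The 34-day part of the interaction rests on PLA_34d replicate 1. Without that library the difference between AP_34d and PLA_34d went from -2.28 to -0.29 for Cxcl13 and from -1.34 to -0.23 for Cxcr3. The 1 h part, AP_1h against PLA_1h, does not involve that library and was 2.75 for Cxcl13 and 0.82 for Cxcr3.

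Cxcr5, the Cxcl13 receptor on B cells and follicular T cells, stood at 0.477 and 0.297 CPM in RA_0, 1.19 and 0.840 in AP_1h, 0.892 and 0.351 in PLA_1h, 1.76 and 0.747 in AP_34d, and 9.53 and 1.28 in PLA_34d. Ccl21, the lymph vessel and lymph node ligand of Ccr7, stood at 29.8 and 38.5 CPM in RA_0, 16 and 6.30 in AP_1h, 19.0 and 41.4 in PLA_1h, 66.6 and 18.8 in AP_34d, and 314 and 27.0 in PLA_34d. Ccl19, the other Ccr7 ligand, stood at 0.477 and 0.297 CPM in RA_0, 0.108 and 0.140 in AP_1h, 0 and 0.351 in PLA_1h, 0.195 and 0.299 in AP_34d, and 23.0 and 0.853 in PLA_34d, and Ccr7 itself at 0.716 and 0 CPM in RA_0, 0.216 and 0.420 in AP_1h, 0.297 and 0.526 in PLA_1h, 0.195 and 0.149 in AP_34d, and 45.2 and 0.995 in PLA_34d. In PLA_34d replicate 1 all 4 were at 4.72 times the next library or more, together with Ms4a1 (50.8 CPM there) and Cd3e (36.3). In the other 9 libraries Ccl19 and Ccr7 stayed under 1 CPM and Ccl21 ranged from 6.30 to 66.6 CPM. Ccl21 was lower in both AP_1h libraries than in RA_0 and PLA_1h, with a log2 difference from RA_0 of -1.65 ± 0.98 (SE, limma adjusted p 0.686). Among PLA_34d and RA_0, 2 members met the study's criterion in the higher direction (Cxcl13 and Cxcr5, 1.98% of transcripts) and 1 in the lower (Cxcl1, 0.439%), and 0 were called (0%). Without PLA_34d replicate 1 only Cxcl1 met it, and without replicate 2, which leaves that library alone in its group, 8 did and Cxcl13 and Cxcr5 were called. The part of lymph node tissue or lymphoid aggregates in this library was not tested.

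**Figure D4:**
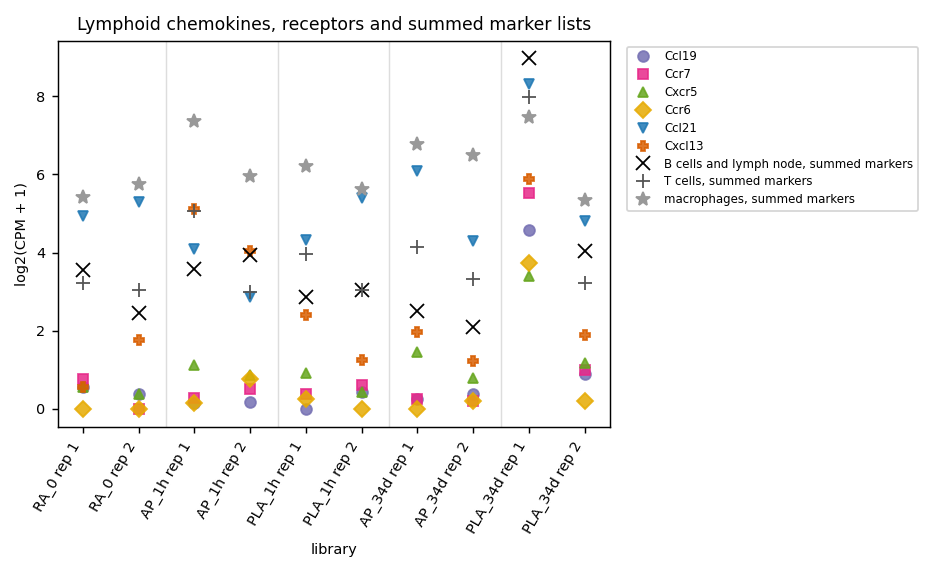
Levels as log2(CPM + 1) (vertical axis) of 6 lymphoid ligands and receptors (coloured symbols) and of summed marker lists for B cells and lymph node, T cells and macrophages (black and grey symbols) in each of the 10 libraries. In PLA_34d replicate 1 the members and the B cell and T cell lists are at their highest, while in AP_1h Cxcl13 is high and Ccl19 and Ccr7 are near 0.

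The starts of Cxcl13 and Ccl19 are printed as the lymphoid ligands with a promoter entry and a match (Cxcl13 at chr14:13917921-13918040, Ccl19 at chr5:61761165-61761284, both minus strand, GRCr8, RefSeq). Capitals mark TATAAA in Cxcl13, 33 bases before the start, and the ISRE consensus in Ccl19, 51 bases before it.
Cxcl13: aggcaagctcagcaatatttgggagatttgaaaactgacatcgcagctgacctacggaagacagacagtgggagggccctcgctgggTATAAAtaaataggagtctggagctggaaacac
Ccl19: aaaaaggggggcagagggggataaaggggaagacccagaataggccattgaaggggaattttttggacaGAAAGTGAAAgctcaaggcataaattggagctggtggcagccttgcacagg
Cxcl13, the member with the largest fitted difference at 1 h, held none of the other searched letters in its 250 bases. Ccl21 and Ccr7 are named only.

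Cxcl12, its receptors Cxcr4 and Cxcr7 (today Ackr3) and Cxcl14 are expressed by resting stroma, vessels and muscle, among other cells. They were read from more counts than most of the inflammatory members. Cxcr7 stood at 76.1 and 95.1 CPM in RA_0, 149.5 and 64.9 in AP_1h, 52.0 and 63.2 in PLA_1h, 60.9 and 68.0 in AP_34d, and 42.2 and 47.5 in PLA_34d. The 2 detected Cxcl12 transcripts overlap each other and another one listed at 0, and lose the reads they share. NM_022177 stood at 41.7 and 62.4 CPM in RA_0, 43.0 and 26.4 in AP_1h, 38.9 and 25.6 in PLA_1h, 37.5 and 33.6 in AP_34d, and 112 and 38.4 in PLA_34d, and NM_001033883 at 21.5 and 28.4 CPM in RA_0, 12.5 and 15.1 in AP_1h, 23.2 and 23.5 in PLA_1h, 17.2 and 25.2 in AP_34d, and 44.1 and 26.7 in PLA_34d. Both Cxcl12 transcripts and Cxcr4 were highest in PLA_34d replicate 1, whereas Cxcr7 was lowest there and highest in AP_1h replicate 1. Both AP_1h libraries were below both RA_0 and both PLA_1h libraries for NM_001033883, with a log2 difference of -0.80 ± 0.34 (SE, limma adjusted p 0.542) against RA_0. Over both times, acupuncture differed from placebo by -0.71 ± 0.24 (SE, limma adjusted p 0.727) for this transcript and by 0.64 ± 0.27 (SE, limma adjusted p 0.832) for Cxcr7. Cxcr4 stood at 11.9 and 12.5 CPM in RA_0, 12.1 and 4.76 in AP_1h, 12.9 and 15.97 in PLA_1h, 9.77 and 11.8 in AP_34d, and 38.0 and 10.1 in PLA_34d, and AP_1h replicate 2 was its lowest library. Cxcl14 stood at 76.3 and 79.8 CPM in RA_0, 87.3 and 36.4 in AP_1h, 58.1 and 63.9 in PLA_1h, 69.7 and 46.3 in AP_34d, and 28.9 and 72.8 in PLA_34d. Its lowest value lay in PLA_34d replicate 1 and its highest in AP_1h replicate 1. The muscle markers had low sums in both of these libraries, at 110901 and 123000 CPM.

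The remaining 9 members were low. Ccr6, a receptor of B cells and T helper cells, reached 12.2 CPM in PLA_34d replicate 1 and stayed at 0.70 or less elsewhere, and had 110 reads in PLA_34d against 0 in RA_0. Ccl22 and Ccl17, ligands of Ccr4 on regulatory and T helper cells, reached 12.6 and 5.16 CPM in the same library, and at most 1.73 and 2.49 in the others. Ccr4, Ccr9, Ccr10, Cxcl17 and Xcr1 also had their highest values there, between 1.35 and 4.49 CPM, and Xcr1 marks a class of dendritic cells. Ccl27, a skin ligand, was between 0.299 and 1.71 CPM with no group apart, and overlaps Il11ra1 in the annotation.

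The direct comparisons of acupuncture with placebo added few members. In AP_1h against PLA_1h, 0 of 25 were called (0%), 3 met the study's criterion in the higher direction (Ccl7, Cxcl13 and Ccl11, against 0.975% of transcripts) and 0 in the lower (1.65%). The median log2 difference of the 25 was 0.77, beside 0.01 over all tested transcripts. Without AP_1h replicate 1 or without PLA_1h replicate 2, 0 met the criterion, without AP_1h replicate 2 9 did, and without PLA_1h replicate 1 6 did. In AP_34d against PLA_34d, 0 were called (0%), Ccl7 alone met it in the higher direction (1.38%) and 0 in the lower (2.18%), with a median of -0.19 beside 0.0027. In AP_34d against RA_0, 0 were called (0%), again Ccl7 alone met it in the higher direction (1.49%) and 0 in the lower (1.33%), with a median of 0.32. Over both times, 4 members met it in the higher direction (Ccl7, Ccl2, Ccr1 and Cxcl1, 0.877%) and 0 in the lower (0.868%). Beside these, the macrophage markers Cd163, a scavenger receptor, and Mrc1 met the criterion with higher values in AP_34d against RA_0, and Cd163 also against PLA_34d, as did the B cell marker Ms4a1 in the lower direction against PLA_34d. Ms4a1 stood at 50.8 CPM in PLA_34d replicate 1 and at 1.14 in replicate 2.

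Genes that act around the chemokines and cell type markers were read by the same criterion. Of 6 tested atypical or neighbouring members of the system (Pf4, Ccbp2, Rarres2, Cmklr1, Dpp4 and Ccrl2), Ccrl2, a non-signalling receptor, met the study's criterion in the lower direction in AP_1h, PLA_1h and PLA_34d, all 3 against the same RA_0 libraries. Of 10 tested genes of receptor signalling, Rgs16, which shortens G protein signals, met it in the lower direction in AP_1h and AP_34d against RA_0. Of 8 tested inducers and NF-κB feedback genes none met it in any pair, and Tnf was under 1 CPM in every library but PLA_34d replicate 1. Of 12 adhesion genes, Selplg was among those that met it in the higher direction in PLA_34d against RA_0, and 0 did in AP_1h, where the median log2 difference was 0.68. Of 3 endothelial genes Cdh5 met it in the lower direction in AP_1h, and of 5 fibroblast genes Col3a1 in the higher direction in AP_1h against PLA_1h. The 1 tested keratinocyte gene did not meet it in any pair, and the keratinocyte markers summed to at most 6.11 CPM. Of 3 tested B cell and lymph node markers, Ms4a1 and Glycam1 met it in the higher direction in PLA_34d against RA_0 and all 3 (Ltb too) in the lower direction in AP_34d against PLA_34d, and of 4 tested T cell markers Lck and Cd2 met it in the higher direction in PLA_34d. Within PLA_34d these markers and Selplg were far higher in replicate 1. Ms4a1 stood at 50.8 and 1.14 CPM there, and Lck at 49.2 and 1.56. Of 3 tested neutrophil markers, Lcn2 met the study's criterion in the higher direction in AP_1h against PLA_1h, with 10.9 and 1.40 CPM in AP_1h. The median log2 difference of the 3 was -0.71 in that pair. S100a8 and S100a9 were lower in AP_1h replicate 2 than in both PLA_1h libraries. Of 6 muscle markers, Myh1 met the criterion in the lower direction in the same pair. None of the genes of these lists passed the adjusted threshold.

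Chemokine genes lie in runs, and members of a run differed in which library was the highest. In rn4, 35 of the 53 symbols lay in 9 runs with gaps of at most 250 kb. The run on chromosome 10 from 70256263 to 70383276 holds Ccl2, Ccl7, Ccl11, Ccl12 and Ccl1, of which Ccl2, Ccl7 and Ccl12 were highest in AP_34d replicate 2, Ccl11 in AP_1h replicate 1, and Ccl1 was under 1 CPM. A run on chromosome 8 that begins at 128527943 includes Ccr9, Cxcr6, Xcr1, Ccr1, Ccr1l1, Ccr3 and Ccr2. Of these, Ccr1, Ccr2 and Cxcr6 met the study's criterion in AP_1h against RA_0, Ccr9 and Xcr1 were highest in PLA_34d replicate 1, and Ccr1l1 and Ccr3 were under 1 CPM. On chromosome 5, from 59199779 to 59240001, Ccl19 and Ccl21 were highest in PLA_34d replicate 1 and their neighbour Ccl27 was not.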

How the data were processed

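The authors made polyadenylated RNA libraries from subcutaneous muscle tissue of 10 rat samples and sequenced them with an Illumina HiSeq. According to the labels and the methods of the study, base calls came from CASAVA 1.8.2, adapters and reads under 25 nt were removed with cutadapt 1.2.1, reads were aligned to rn4 with Bowtie2 2.1.0 and counted per transcript with HTSeq 0.5.4p3 in intersection-nonempty mode, which drops reads that fit several transcripts. Whether strand was used is not stated. The deposited values are a signal per transcript and library, namely read counts per 1000000 of the effective library size (library size times the TMM factor of edgeR 3.4.2), called CPM here. All values were whole multiples of 1 read (100% within 0.01 reads), so the reads were recovered. Coordinates are those of rn4, counted from 1. All samples were extracted in 1 batch per the labels.

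Members were taken by symbol. Values were tested as log2(CPM + 1) with limma 3.58.1 in R 4.3.3 (lmFit with 1 mean per group over all 10 libraries, eBayes with trend, residual degrees of freedom 5 and prior 5.14). The fit held the 10259 transcripts that reached 1 CPM in each of the 2 libraries of some group, and p-values were adjusted after Benjamini and Hochberg over all of them, with 0.05 as the threshold. The pseudocount of 1 understates the change of low transcripts. The study's criterion (unadjusted p under 0.05, at least 2-fold, a mean over the compared libraries of 1 CPM or more) was read from the same fit. Exact permutation of 2 libraries against 2 has 0.333 as its smallest p and was not used. The analysis was tested on simulated data. Alternatives were limma-voom (the study's test), edgeR 4.0.16 and DESeq2 1.42.0 on recovered reads, pseudocounts of 0.25 and 4, no filter and a filter on means under 5 CPM, other scalings, no mean trend, only the 2 groups compared, a replicate block and each library left out. Transcripts summed per symbol are an alternative chosen after seeing the data.

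The members, the marker and pathway lists (skeletal muscle, leukocytes, macrophages, neutrophils, T cells, B cells and lymph node, endothelium, fibroblasts, keratinocytes, related chemokine system genes, receptor signalling, inducers, interferon signalling and adhesion) and the tests were chosen with earlier results of these data known. Values in all libraries are given for members that met the study's criterion in any of 6 pairs of groups, for the 10 with the highest mean and for ligands or receptors that share an axis with the former (33 transcripts, less what is not reported here), the others by range. Promoters are RefSeq's for GRCr8, matched by transcript accession. An accession was found for 52 symbols and a promoter for 41. A few genes that enter the counts, list sums and medians are not reported here by name or value. Figures were drawn with matplotlib 3.10.9.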

Additional observations from a re-analysis of the deposited data

Results flagged for a closer look

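Ccl6 lay on opposite sides of RA_0 in the placebo groups, with both PLA_1h libraries above both RA_0 libraries (a difference of 0.39 in log2(CPM + 1)) and both PLA_34d libraries below them (-0.46), so that the 2 times differed by -0.85. This difference between times was not tested as such.

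Ccl17 was higher in both AP_1h libraries than in both PLA_1h libraries (0.91) and lower in both AP_34d libraries than in both PLA_34d libraries (-1.33), a difference of -2.24 between the times that was not tested. It rested on 26 and 4 reads at 1 h and on 2 and 49 reads at 34 days, with 46 of the 49 in PLA_34d replicate 1, the library that stands apart.

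Cxcl17 was below RA_0 in both AP_34d libraries (-0.25) and above it in both PLA_34d libraries (0.87), a difference of 1.12 that was not tested. It had 2 reads in RA_0, 0 in AP_34d and 26 in PLA_34d, most of them in replicate 1.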

How the results depend on the processing

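In all 8 comparisons 0 of the tested members were called, and of 192 recomputed counts 183 stayed at 0. DESeq2 on recovered reads called 2 members (Cxcl13 and Cxcr6) in AP_1h against RA_0, 1 (Cxcl13) in PLA_34d against RA_0, 1 (Cxcl13) in AP_34d against PLA_34d, 1 (Ccl7) in acupuncture against placebo over both times and 1 (Cxcl13) in the interaction. The compared groups fitted alone gave 3 (Ccl7 and Cxcl13 among them) in AP_1h against RA_0. With 1 library left out in turn, the counts ran from 0 to 2 in PLA_34d against RA_0, from 0 to 2 in AP_34d against PLA_34d and from 0 to 1 in the interaction, all without PLA_34d replicate 2, which leaves its other library alone and assumed to vary like the other groups. The cause of these differences was not tested. None of 441 recomputed log2 differences of the 13 members that met the study's criterion changed sign in a pair where they met it.

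The number of members meeting the study's criterion in AP_1h against RA_0 ran from 1 (mean of at least 5 CPM, which leaves 12 members) to 11 over the other settings, with 4 under limma-voom. In AP_1h against PLA_1h it ran from 1 to 9, in PLA_34d against RA_0 from 1 to 6, in AP_34d against PLA_34d from 0 to 7, in AP_34d against RA_0 from 0 to 4 and in PLA_1h against RA_0 from 0 to 1. Library size without TMM gave medians of all transcripts of up to 0.23 (log2, PLA_34d against RA_0, where the main fit gave -0.011). It left 6 members in AP_1h against RA_0.

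Deviations of libraries that share a replicate number correlated between -0.464 and 0.446 over group pairs, so the numbers do not pair the samples. With the replicate block 0 members were called in every comparison, and 8, not 10, met the study's criterion in AP_1h against RA_0.

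Depth limits the low members: 17 of the 42 described were too low to be tested, and ratios that rest on 1 to 3 reads in a group, as for Ccl3, Cxcl11 and Cxcr3, have wide counting intervals.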
